A study of Mus musculus with 4 samples.

Results

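The interleukin-2 receptor and its relatives that share the common gamma chain were followed in regulatory T cells activated with or without an agonist of OX40. The set held 8 genes, Il2ra, Il2rb, Il2rg, Il4ra, Il7r, Il9r, Il15ra and Il21r, and its probes were all those that the platform annotation gives one of these symbols. These came to 13 of the 25697 probes of the table and covered 6 of the 8 genes. No probe given here carried the symbol Il2rg or Il4ra, so the common gamma chain itself and the interleukin-4 receptor alpha chain were not analysed here.

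The cells were spleen T cells of C57Bl/6 mice aged 8 to 12 weeks, sorted for a green fluorescent reporter of Foxp3 and activated overnight with anti-CD3, which engages the T-cell receptor complex. The control cultures also held rat IgG as isotype control, and the others held OX86, a monoclonal antibody that activates OX40, a costimulatory receptor of the TNF receptor family. Both groups had therefore received anti-CD3, and no unstimulated cells were included. Each group was measured on 2 Illumina bead arrays, numbered 1 and 2 in the labels. Nothing says whether they came from separate mice or cultures, and p-values here therefore reflect only how far the arrays lie from each other, which may be technical. In such bulk samples, fewer cells of a type and less RNA per cell cannot be told apart. The labels say nothing of the number of mice pooled or of the allele that carries the reporter.

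Receptors of this family bind short helical cytokines. The common gamma chain, encoded by Il2rg, pairs with a private chain for interleukin-4, 7, 9 or 21, and with Il2rb for interleukin-2 and 15. The alpha chains Il2ra and Il15ra add affinity for their own cytokine and do little signalling by themselves. Signalling runs through the kinases JAK1 and JAK3 to STAT5 and other STAT factors. Regulatory T cells carry Il2ra (CD25) at high levels, make little interleukin-2 of their own, and depend on it for Foxp3 expression and survival, while their surface interleukin-7 receptor is typically low at rest.

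OX86 and isotype arrays could not be told apart by any of these receptor probes. Of the 13 probes, 8 were detected at p under 0.05 on at least 2 of the 4 arrays and were tested, and they covered Il2ra, Il2rb, Il7r, Il15ra and Il21r. In limma with Benjamini-Hochberg adjustment, 0 of these 8 passed, where 0% of all 13338 tested probes did, and their adjusted p was 0.9999 for each. At an unadjusted p under 0.05 there were also 0 of 8, against 3.33% of all tested probes. The groups overlapped in each of the 8 probes, while among all tested probes they were apart in 26.9%. The median log2 change, OX86 minus isotype, was -0.05 over the 8 probes and 0.01 over all tested probes, and 5 of the 8 changes were under 0.1 in size. The 95% intervals reached 0.48 to 1.10 to either side of the estimate on the log2 scale, a factor of 1.40 to 2.14. These intervals are not adjusted for the number of probes tested. Smaller differences were not detectable with 2 arrays in each group. Larger ones did not pass after adjustment either: changes over all tested probes ran from -1.31 to 1.41, and 0 passed.

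**Figure D1:**
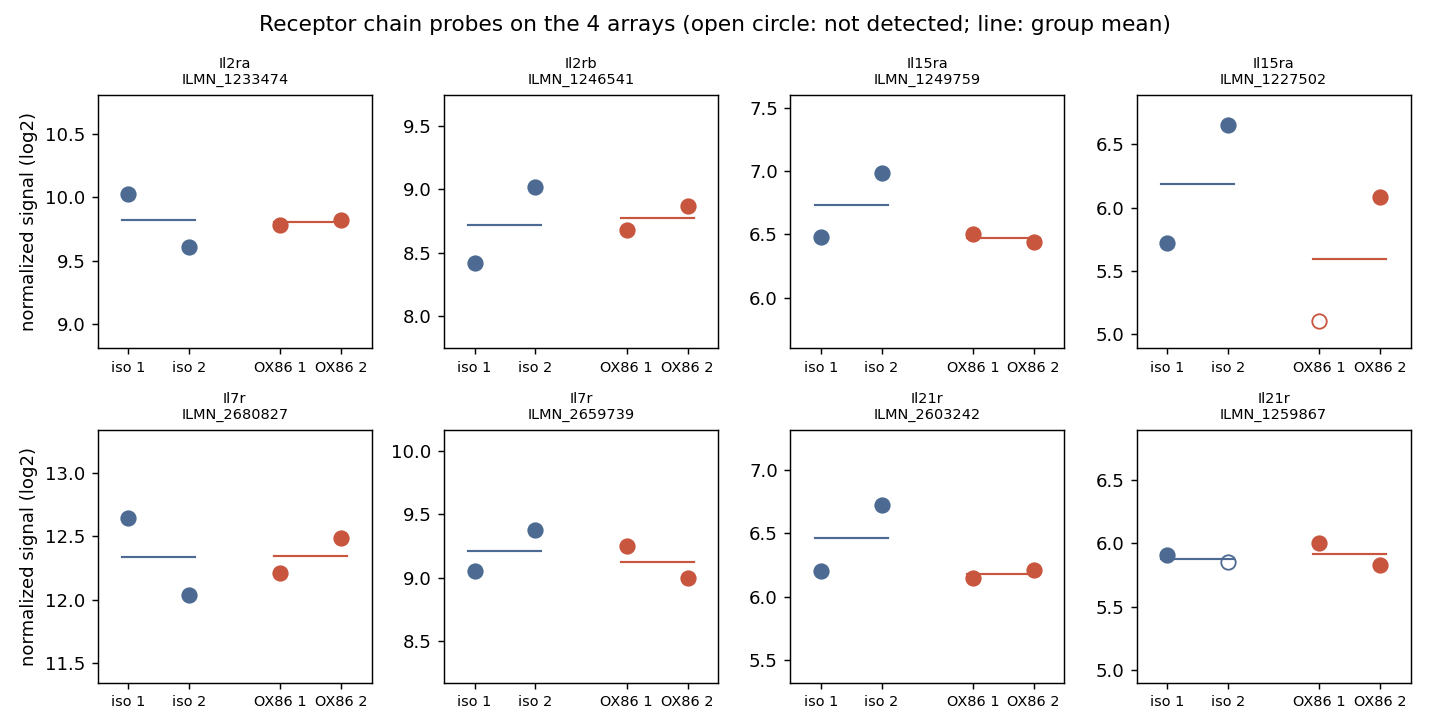
Normalized log2 signal (vertical axis, each panel spanning the same height around its own mean) of the 8 tested receptor probes on each isotype (blue) and OX86 (red) array, with lines at the group means and open circles where the probe was not detected. In every panel the ranges of the groups overlap, and in 6 of the 8 the isotype arrays lie farther from each other than the OX86 arrays do.

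Isotype 2 differed from the other arrays in the table as a whole. It had 11800 detected probes against 12890 to 13682 on the others, and across tested probes its correlation with them was 0.968 to 0.972, against 0.981 to 0.985 among the other 3. Its deposited signal was the lowest of the 4 for 96.0% of the 10487 probes detected on every array, and for 6 of 6 receptor probes detected on every array. After normalization it was the highest or lowest array for 7 of the 8 tested receptor probes, as it was for 63.8% of all tested probes. The isotype arrays lay farther apart than the OX86 arrays in 6 of the 8, and in 58.9% of all tested probes. The part of this array in the values below was not tested beyond leaving it out. Of the regulatory T-cell markers Foxp3, Ctla4, Ikzf2, Tnfrsf18 and Tnfrsf4, 5 of 5 were detected on all 4 arrays. Of 4 myeloid and dendritic-cell markers with a probe, 0 were detected on enough arrays to be tested. Those that were included 3 B-cell markers, the CD8 chain gene Cd8b1 and the haemoglobin gene Hba-a1. The receptor gene Klrk1 of NK and CD8 T cells was tested by 1 of its 4 probes. The CD8 chain gene Cd8a, Klrb1c and Ncr1 of the same marker list and the erythroid gene Alas2 had a probe but were not tested. The B-cell markers went both ways. Ms4a1, detected on 3 arrays, had a log2 change of 0.81 (unadjusted p = 0.027, adjusted p = 0.9999 in limma with Benjamini-Hochberg adjustment). Cd79a had -0.26. Cd79b had -0.16 by the brighter of its 2 tested probes and 0.53 by the other. Hba-a1 read 10.69 and 9.26 for isotype and 10.11 and 9.14 for OX86.

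The receptor for interleukin-2 was described first. Il2ra, the alpha chain known as CD25, was read by a single probe, ILMN_1233474, with deposited signals of 1680 and 706.5 on isotype 1 and 2 and of 1122 and 1236 on OX86 1 and 2. After background correction and quantile normalization these became log2 signals of 10.03 and 9.60 for isotype and 9.78 and 9.82 for OX86. Both OX86 arrays thus lay between the isotype arrays. The log2 change was -0.02 (SE 0.23, 95% interval -0.58 to 0.54), an interval of 0.671 to 1.46 as a fold. The isotype arrays had an SD of 0.30 and the OX86 arrays with one of 0.03 (n = 2 each). Without isotype 1 the change was 0.20 and without isotype 2 it was -0.23.

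The Il2ra value carries an uncertainty of identity. The probe ILMN_1238505, annotated to the interleukin-10 gene Il10, gave deposited signals of 1666 and 705.0 in the isotype group and 1125 and 1223 in the OX86 group. Relative to Il2ra these differed by -0.855% and -0.22% on isotype 1 and 2 and by 0.251% and -1.08% on OX86 1 and 2. No other probe lay within 2% of Il2ra on all 4 arrays. The normalized change of the Il10 probe was -0.01 (95% interval -0.57 to 0.55). Such nearness was uncommon but not unique at this brightness. The comparison took 1097 other probes detected on every array with a mean signal within 1.2-fold of Il2ra. Of these, 15 (1.37%) had a probe of another gene as near. With Il2ra included, 149 of 1098 (13.6%) had one within 2%, and the median distance to the nearest was 3.24%. The Il2ra probe had been singled out for this nearness beforehand, so these shares are a description and not a test. The annotation gives the probes different accessions, and probe sequences were not used here. Whether both probes read the same transcript was not tested.

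**Figure D2:**
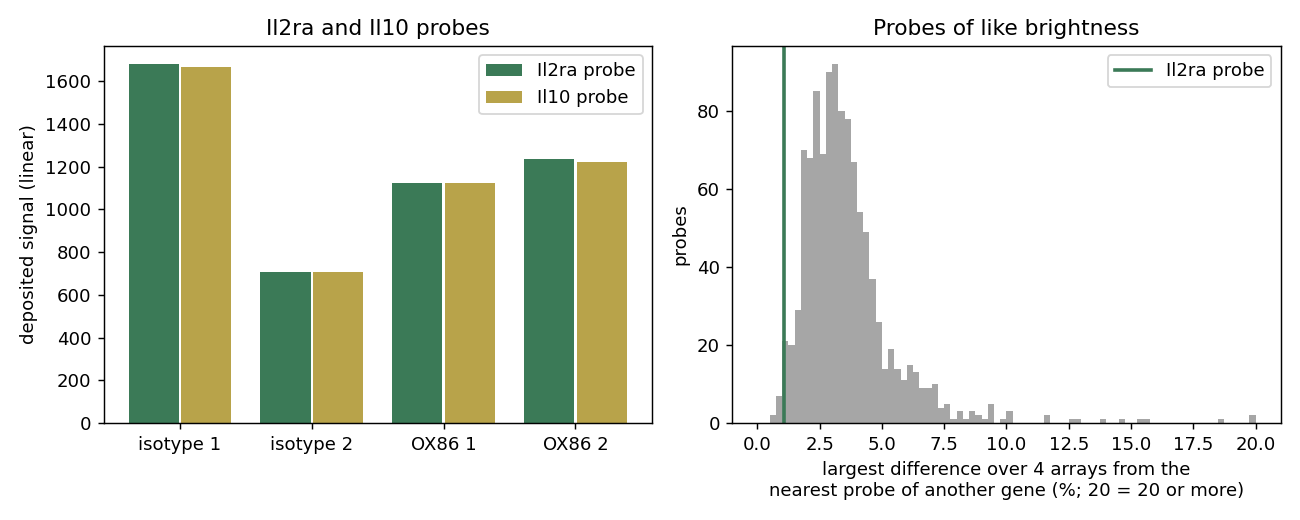
Left, deposited linear signals of the Il2ra and Il10 probes on each array, which differ by at most 1.08%. Right, for 1098 probes of like brightness, Il2ra included, the largest percent difference over the 4 arrays from the nearest probe of another gene, with a line at the Il2ra value of 1.08% and the median of all of them at 3.24%.

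Il2rb, the beta chain that carries most of the signal for interleukin-2 and 15, was read by ILMN_1246541. Its deposited signals were 717.3 and 562.5 in the isotype group and 664.7 and 769.1 in the OX86 group. Normalized log2 signals were 8.42 and 9.02 for isotype and 8.68 and 8.87 for OX86. The array with the lowest deposited signal, isotype 2, thus had the highest normalized one. The OX86 arrays again fell between the isotype arrays, and the log2 change was 0.06 (SE 0.27, 95% interval -0.60 to 0.72). It was -0.25 without isotype 1 and 0.36 without isotype 2.

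Il15ra, the alpha chain that binds interleukin-15 and can present it to neighbouring cells, lies next to Il2ra in the RefSeq annotation of GRCm38.p6, with 0 protein-coding genes between them. It had 4 probes, all near the detection limit. The brightest, ILMN_1249759, had log2 signals of 6.48 and 6.99 in the isotype group and 6.50 and 6.44 in the OX86 group, so that isotype 2 alone stood above the rest. Its log2 change was -0.26 (95% interval -0.86 to 0.34), and -0.01 without isotype 2. The probe ILMN_1227502 read 5.72 and 6.65 in the isotype group and 5.11 and 6.09 in the OX86 group. Its value on OX86 1 was below detection (detection p 0.446), and array 2 was the higher one in each group. The change was -0.59 (95% interval -1.69 to 0.50), the widest interval of the 8, and ran from -1.08 without OX86 2 to -0.10 without OX86 1. A further probe to the same accession, ILMN_1220603, was detected on OX86 2 alone, and ILMN_1236536, annotated to another Il15ra transcript, on 0 arrays.

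The remaining private chains began with Il7r, whose product (CD127) binds interleukin-7 and, with another chain, thymic stromal lymphopoietin. Its 3 probes carry the same accession. ILMN_2680827 had deposited signals of 9017 and 2739 on isotype 1 and 2 and of 4924 and 6421 on OX86 1 and 2, and log2 signals of 12.65, 12.03, 12.21 and 12.49 in the same order. The highest and the lowest array were thus both isotype arrays. Its log2 change was 0.01 (SE 0.27, 95% interval -0.67 to 0.69), with 0.31 without isotype 1 and -0.30 without isotype 2. ILMN_2659739 read 9.05 and 9.38 in the isotype group and 9.25 and 9.00 in the OX86 group, a change of -0.09 (95% interval -0.64 to 0.47). The probes ordered the arrays differently: isotype 2 was the lowest array for the first and the highest for the second. The third, ILMN_2975500, was detected on isotype 1 alone, with a deposited signal of 324.8 there and 259.2 on isotype 2.

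Il21r, the receptor for interleukin-21, lies next to Il4ra in the RefSeq annotation, with 0 protein-coding genes between them. Its probe ILMN_2603242 had log2 signals of 6.20 and 6.72 in the isotype group and 6.14 and 6.21 in the OX86 group. Isotype 2 stood above the other 3, and the change of -0.29 (95% interval -0.89 to 0.32) was -0.03 without it. ILMN_1259867 was detected on 3 arrays and read 5.91 and 5.85 for isotype and 6.00 and 5.83 for OX86, a change of 0.04 (95% interval -0.45 to 0.52). ILMN_3120000 was detected on 0 arrays.

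Il9r, the interleukin-9 receptor chain, had 1 probe, ILMN_2688364, and it was detected on 0 of the 4 arrays. Its deposited signals were 285.7 and 278.1 in the isotype group and 282.3 and 275.9 in the OX86 group, with detection p-values of 0.298 to 0.551. An Il9r difference was not detectable at this signal, and no fold is given. In all, 6 of the 13 probes were detected on all 4 arrays, 2 on 3 arrays, 2 on a single array and 3 on 0 arrays.

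In 5 of the 8 tested probes the change took the other sign when 1 array was left out. These were the probes of Il2ra, Il2rb and Il7r and the dimmer Il21r probe. For Il2ra, Il2rb and Il7r ILMN_2680827 both OX86 arrays lay between the isotype arrays. Leaving out 1 of the isotype arrays then turns the sign by arithmetic. The share of all tested probes that turned was not counted. The 3 receptor probes that kept their sign were both tested Il15ra probes and the brighter Il21r probe, which were all lower in mean with OX86. Without isotype 2 these 3 changes were -0.13 (ILMN_1227502), -0.01 (ILMN_1249759) and -0.03 (ILMN_2603242), and without isotype 1 they were -1.06, -0.52 and -0.54. A group then held a lone array, assumed to vary like the other group.

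**Figure D3:**
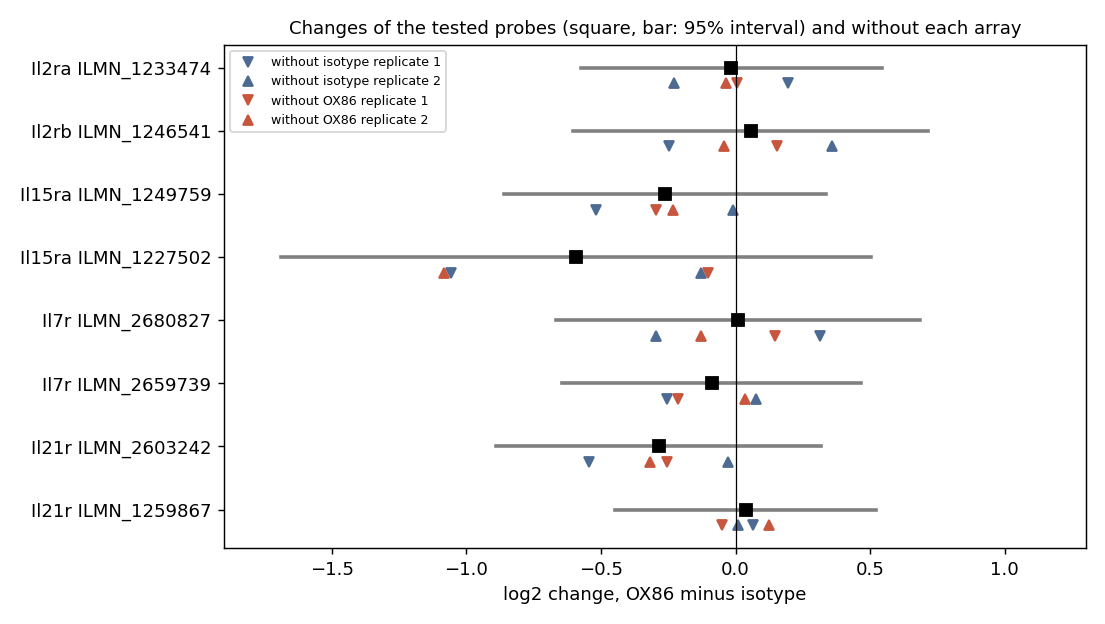
Log2 change, OX86 minus isotype (horizontal axis), of each tested receptor probe over all 4 arrays (black square) with its 95% interval (grey bar), and with 1 array left out (triangles). Every interval spans 0, and the blue triangles run from -1.06 to 0.36.

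The promoters of the members were scanned for letters of factors tied to these pathways. RefSeq windows of GRCm38.p6, from 250 bases before to 50 bases after a start site, were at hand for 7 of the 8 genes (8 windows, 2 of them for Il15ra), Il2rb having none there. The motifs were the STAT letters TTCNNNGAA, which read the same on both strands, the forkhead letters TGTTTAC on either strand, and the NF-kB consensus on either strand. A STAT match was present in 1 of the 8 windows, that of Il7r, and in 8.3% of all 32851 windows. A forkhead match was present in 1 window, that of Il21r, and in 3.65% of all. An NF-kB match was present in 2 windows, those of Il2ra and Il4ra, and in 4.51% of all. The Il2ra match consists of 2 overlapping ones that begin 201 and 200 bases before the start site, and the Il7r match begins 142 bases before it. Each is a match of letters and not a measured binding site. The Il2ra window (chr2:11642542-11642841, plus strand) and the Il7r window (chr15:9529827-9530126, minus strand) are shown 5′ to 3′ on the strand of the gene because they belong to the alpha chains of interleukin-2 and interleukin-7 and hold an NF-kB and a STAT match, with the matched letters in capitals.
Il2ra: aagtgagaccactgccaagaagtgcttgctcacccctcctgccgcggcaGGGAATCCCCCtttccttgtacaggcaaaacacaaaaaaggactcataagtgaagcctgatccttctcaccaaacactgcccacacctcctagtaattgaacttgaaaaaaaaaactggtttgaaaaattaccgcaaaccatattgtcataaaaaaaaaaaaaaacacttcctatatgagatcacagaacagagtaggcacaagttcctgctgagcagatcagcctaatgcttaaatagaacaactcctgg
Il7r: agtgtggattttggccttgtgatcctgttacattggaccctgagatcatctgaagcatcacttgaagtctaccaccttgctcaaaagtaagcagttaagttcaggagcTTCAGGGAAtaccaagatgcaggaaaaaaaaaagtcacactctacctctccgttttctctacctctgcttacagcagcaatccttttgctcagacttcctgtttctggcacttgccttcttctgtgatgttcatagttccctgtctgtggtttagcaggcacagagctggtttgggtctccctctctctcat

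Genes around the receptors were taken from a list of 47 ligands, partner chains, signalling proteins, inhibitors and targets, of which 29 had a tested probe. In limma with Benjamini-Hochberg adjustment 0 of the 29 passed, and 0 had an unadjusted p under 0.05, against 3.33% of all tested probes. In mean, 17 were higher and 12 lower with OX86. The median log2 change was 0.03, beside 0.01 over all tested probes. Both OX86 arrays lay above both isotype arrays in 5 of the 29 (13.9% of all tested probes) and below them in 2 (13.1% of all).

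Among ligands, only Il4 and Il15 had a tested probe. Il4 read 5.56 and 6.79 in the isotype group and 5.87 and 6.81 in the OX86 group on the log2 scale, so array 2 was the higher in each group, and its change was 0.17 (95% interval -1.06 to 1.40). Il15 had a change of 0.16 (-0.58 to 0.89). The gene of interleukin-2 had no probe here. The partner chain Il13ra1, which forms a receptor with Il4ra, had -0.18 (-0.81 to 0.46). The kinase gene Jak1 had a change of 0.21 (-0.46 to 0.89), from isotype signals of 11.40 and 10.74 and OX86 signals of 11.32 and 11.24. Stat3 had 0.06 (-0.43 to 0.55) by its brightest probe, but its 3 tested probes ran from -0.28 to 0.06. Stat6, the factor of interleukin-4 signalling, had 0.07 (-0.40 to 0.53). The adaptor genes Grb2 and Shc1 had 0.18 (-0.62 to 0.99) and -0.04 (-0.52 to 0.44). Pik3r1, the regulatory subunit of PI3 kinase, had -0.04 (-0.59 to 0.51) by its brightest probe. Its 3 tested probes ran from -0.09 to 0.05.

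Inhibitors of the signalling went both ways, 4 of 6 higher and 2 lower in mean. Socs3, which blocks JAK kinases, had -0.26 (95% interval -0.84 to 0.31) and Socs2 0.18 (-0.32 to 0.67), while Pias1, which binds STAT factors, had 0.14 (-0.35 to 0.63). Target genes were divided evenly, 5 higher and 5 lower. By the brightest probe of each gene, the survival gene Bcl2 had the largest change of the 29 over the 4 arrays, with 9.34 and 9.20 in the isotype group and 9.46 and 9.76 in the OX86 group. The groups did not overlap, and the change was 0.34 (-0.19 to 0.86), but its 5 tested probes ran from -0.32 to 0.34. The kinase gene Pim1 had 0.23 (-0.32 to 0.78), and Myc, with 6.49 and 6.14 against 6.09 and 6.11, had -0.22 (-0.75 to 0.32). Of the 15 surrounding genes named here, 8 took the other sign when 1 array was left out, a share not counted for all tested probes. The other 7 kept their sign but moved by over 1.5 times, Bcl2 from 0.19 without OX86 2 to 0.49 without OX86 1, and Pim1 from 0.056 without isotype 2 to 0.40 without isotype 1.

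**Figure D4:**
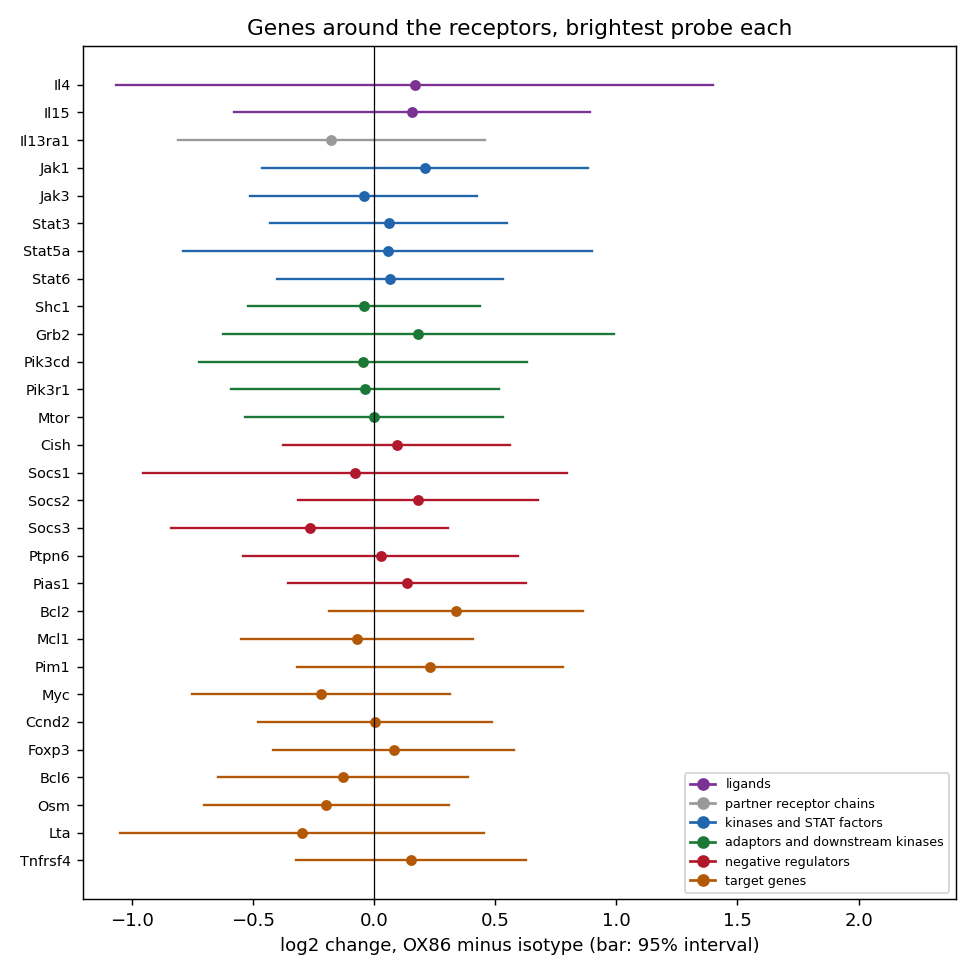
Log2 change, OX86 minus isotype (horizontal axis), with 95% intervals for the 29 tested genes around the receptors, each by its brightest probe and coloured by role. Estimates run from -0.30 to 0.34 and every interval spans 0.

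Cytokine receptors outside the common gamma chain family were counted in the same way. Of 19 listed, 14 had a tested probe, 9 higher and 5 lower in mean, with a median log2 change of 0.08, and 0 passed in limma with Benjamini-Hochberg adjustment or had an unadjusted p under 0.05, against 3.33% of all tested probes. Both OX86 arrays were above both isotype arrays in 3 of the 14 (13.9% of all tested probes) and below them in 0 (13.1% of all). The largest value was that of Il1r2, an interleukin-1 decoy receptor named after its values were seen, with 8.49 and 9.34 in the isotype group and 9.52 and 10.04 in the OX86 group, a change of 0.86 (95% interval -0.01 to 1.73). A difference between these receptors and the common gamma chain set was not tested.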

How the data were processed

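Total RNA of sorted spleen regulatory T cells was amplified to biotin-labelled cRNA and hybridised to Illumina bead arrays, per the labels' protocols. The submitters' processing notes name BeadStudio, whose settings were not given in the sources used here. Per probe and array, the deposited table holds a linear signal intensity, not normalized, and a detection p-value. A second deposited table holds intensities that the authors had normalized between arrays, used as an alternative.

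Here neqc (limma 3.58.1, R 4.3.3) corrected the background by a normal-exponential model, with control statistics derived from detection p-values and an offset of 16, then normalized by quantiles and took log2. Quantile normalization gives all arrays the same distribution, so a probe's normalized order over arrays can differ from that of its signals. Probes detected at p under 0.05 on at least 2 arrays were tested, 13338 of 25697. OX86 was compared with isotype in limma (lmFit, eBayes, two-sided, no covariate) with 2 residual degrees of freedom, Benjamini-Hochberg adjustment over all tested probes and a threshold of 0.05. The eBayes step drew each probe's variance toward a value common to all tested probes, with 3.684 prior degrees of freedom. The arrays' number limits the precision.

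Gene names came from the platform annotation (23978 probes with 1 symbol, 0 with several, 1719 with none). All receptor probes were named. Of the surrounding genes, up to 3 in each role with the smallest unadjusted p were named, each by its brightest tested probe. The members and lists were chosen with earlier results of these data known. The labels do not say whether replicate numbers pair the arrays. The deviations of array 1 from its group mean correlated at 0.07 between the groups across tested probes.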

Additional observations from a re-analysis of the deposited data

How the results depend on the processing

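After Benjamini-Hochberg adjustment in limma, the number past the threshold was 0 for all tested probes, for the receptor probes and for the surrounding genes under each of 13 alternatives, which changed the background correction, the normalization, the filter on dim probes, the spread model, the array weights or the block, or left out 1 array. Probes at an unadjusted p under 0.05 numbered 102 (median scaling) to 1540 (without isotype 1) of all tested probes. The smallest adjusted p over all probes was 0.327 without isotype 1 and 0.9997 or more elsewhere. With the replicate number as a block the count past the threshold was 0. The median log2 change of the receptor probes stayed at -0.05, since a block that holds 1 array of each group cannot change it. The Il15ra probe ILMN_1227502 alone of the 8 then had an unadjusted p under 0.05 (0.0344, limma), with an adjusted p of 0.9999. Whether the numbers pair the arrays is not stated in the labels. Under median scaling the median change of all tested probes was 0.12, and Il2ra stood at 0.13, Il7r ILMN_2659739 at 0.053, Shc1 at 0.085 and Pik3r1 at 0.10, each with its sign turned. The median over the receptor probes was then 0.04. Relative to that shift ILMN_2659739, Shc1 and Pik3r1 kept their sign, at -0.07, -0.03 and -0.02. Il2ra, at 0.01, and Il21r ILMN_1259867, at -0.09, had the opposite sign of their relative change without median scaling. With the authors' processed values, or with no background correction, the receptor changes ran from -0.15 to 0.03. Leaving out 1 array at a time gave -0.23 to 0.20 for Il2ra, -0.25 to 0.36 for Il2rb, -0.30 to 0.31 for Il7r ILMN_2680827, -0.25 to 0.075 for ILMN_2659739, and -0.051 to 0.12 for Il21r ILMN_1259867. For the genes around the receptors it gave -0.45 to 0.79 for Il4, -0.23 to 0.54 for Il15, -0.17 to 0.54 for Grb2, -0.12 to 0.54 for Jak1, -0.23 to 0.15 for Pik3r1, -0.42 to 0.071 for Il13ra1, -0.12 to 0.037 for Shc1 and -0.035 to 0.16 for Stat3. It gave 0.19 to 0.49 for Bcl2, 0.056 to 0.40 for Pim1, -0.40 to -0.04 for Myc, -0.46 to -0.07 for Socs3, 0.08 to 0.28 for Socs2, 0.038 to 0.24 for Pias1 and 0.03 to 0.10 for Stat6. The median over the receptor probes was -0.25 to -0.02 in these fits, and -0.09 with Il2ra left out, an alternative chosen after seeing the data. What lay behind the differences between arrays and settings was not tested.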
